A study of Homo sapiens with 52 samples.

Results

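Contact of the 16 large olfactory receptor gene clusters with the nuclear lamina was examined in single KBM7 cells, an established human leukaemia line. The clusters were taken as fixed intervals of the human genome build hg19, and every 100 kb bin that overlapped an interval was a member. This gave 158 of the 30376 bins, of which 155 carried a value, against 26584 bins with a value in all. The 550 bins within 2 Mb of a cluster edge that lay in no cluster, 509 of them with a value, served as flanks. All cells were of clone 14, with a ploidy of 2N, and carried Dam fused to LaminB1, so they formed 1 group and no untreated or Dam-only group was compared. Adenine methylation by the fusion had been switched on for 15 h with 0.5 nM Shield1, and small cells positive for both Fucci cell cycle markers had been sorted one by one. The labels list 52 cells, and the 51 with a column were used (cell 47 was not analysed here).

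Olfactory receptors are odorant-binding G-protein-coupled receptors, and each olfactory neuron uses essentially 1 of them. The genes sit in tandem arrays, mostly without a CpG island, and are generally silent outside the olfactory epithelium. Their arrays are often found in late-replicating, AT-rich chromatin, the kind of DNA that tends to lie in lamina-associated domains at the nuclear rim. DamID reads such proximity out: Dam methylates GATC sites that come close to the lamina, and DpnI cuts these methylated sites.

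In the RefSeq gene order (GRCh38.p14), the clusters held 521 olfactory receptor genes and pseudogenes, 305 of them coding, and 54 other coding genes. Because these genes are placed on another build, they describe a cluster as a whole and were not set against single hg19 bins. In 6 clusters every coding gene between the first and last receptor was a receptor gene. The 250 bases before the annotated start were available for 252 receptor genes and had a median GC content of 36.8%, against 58.0% over all 27303 genes of the table. The median number of CpG dinucleotides was 1 against 11. The Dam target GATC, which reads the same on both strands, was present in 39.7% of the receptor promoters and in 35.8% of all promoters. Promoters of single genes are printed 5′ to 3′. OR13C5 is from a cluster with near-constant contact, and OR8G1 is from a cluster with high contact above its flanks. OR2AP1 is from a cluster with contact in a minority of cells, and OR1R1 is from a cluster with no contact call. Sequences and positions are RefSeq's on GRCh38.p14, and capitals mark GATC.
OR13C5 (chr9:104599414-104599663, minus strand): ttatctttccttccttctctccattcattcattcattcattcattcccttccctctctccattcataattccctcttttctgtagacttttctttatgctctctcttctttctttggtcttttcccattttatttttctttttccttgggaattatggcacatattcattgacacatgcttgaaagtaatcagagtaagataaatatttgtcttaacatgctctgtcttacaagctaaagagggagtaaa
OR8G1 (chr11:124240845-124241094, plus strand): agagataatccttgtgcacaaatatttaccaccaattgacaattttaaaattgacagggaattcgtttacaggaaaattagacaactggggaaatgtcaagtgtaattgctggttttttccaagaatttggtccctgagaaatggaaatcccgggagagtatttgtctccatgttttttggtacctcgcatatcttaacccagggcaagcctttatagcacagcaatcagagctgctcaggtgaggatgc
OR2AP1 (chr12:55572218-55572467, plus strand): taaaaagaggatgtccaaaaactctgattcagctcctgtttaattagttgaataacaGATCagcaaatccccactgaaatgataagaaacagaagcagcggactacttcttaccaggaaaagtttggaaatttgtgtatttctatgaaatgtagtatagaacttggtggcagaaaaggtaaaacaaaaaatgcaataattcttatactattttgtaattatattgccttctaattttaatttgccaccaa
OR1R1 (chr17:3385680-3385929, plus strand): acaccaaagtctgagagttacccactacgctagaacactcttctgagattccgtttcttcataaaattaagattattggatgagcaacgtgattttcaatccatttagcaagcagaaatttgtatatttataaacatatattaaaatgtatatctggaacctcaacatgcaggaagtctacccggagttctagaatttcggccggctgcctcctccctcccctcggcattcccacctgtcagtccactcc

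These promoters had GC contents of 34.0%, 40.4%, 31.6% and 42.0% in the order printed. Only OR2AP1 held a GATC in this window. Over the 16 clusters, median promoter GC content and contact share correlated weakly (r = -0.28, rho = -0.30, n = 16), which is given as a description and no finding.

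The deposited values are ratios of observed over expected signal (OE). In each cell, bins with an OE of 1 or more were called contacted. The contact share is the percentage of a region's bins contacted in a cell, and the contact frequency is the percentage of the 51 cells that contacted a bin. No label separates cultures, and all cells of this clone count as 1 sample. Each ± is an SD over 51 cells, no p-value is given, and nothing here measures the spread between cultures. Depth, as reads recovered from the ratios, ranged from 50978 to 316463 per cell (median 142540). A bin with the median expected number reached an OE of 1 with 2.12 reads in the shallowest cell and with 13.2 in the deepest. In 2N cells a call does not show which chromosome copy was in contact.

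The clusters were contacted more than the DNA beside them and more than the genome as a whole. The cluster bins had a contact share of 50.7% ± 10.2, with a lowest cell of 19.4%, a median of 51.6% and a highest cell of 72.9%. Their flanks had 19.8% ± 3.12, from 12.4% to 26.1%, and all bins had 31.5% ± 3.56. Within a cell the clusters exceeded their flanks by 30.9 ± 8.22 percentage points, and the difference was above 0 in 51 of 51 cells (3.44 to 46.8 points). They exceeded all bins by 19.2 ± 8.24 points, in 49 of 51 cells. With each cluster given equal weight the shares were 47.8% and 18.9%. Chromosome 11 holds 6 clusters and 97 of the 155 bins, and without them the difference from the flanks was 19.4 ± 8.09 points, still above 0 in 51 of 51 cells. The 58 cluster bins elsewhere had a share of 41.0% ± 9.72, nearer to the 31.5% of all bins. In 67 of the flank bins all 51 cells lacked reads, and over bins with a read the difference was 28.2 ± 8.04 points.

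The bins of the clusters were spread over intermediate frequencies. The median contact frequency was 58.8% in cluster bins, 0% in flank bins and 7.84% over all bins. Of the cluster bins, 68 (43.9%) were contacted in above 20% and under 80% of cells, against 22.1% of all bins and 14.5% of flank bins. Another 88 (56.8%), a count that overlaps the first, were contacted in at least 50% of cells, against 32.1% of all bins. No cell contacted 14 cluster bins (9.03%), 1 of which held no read in any cell, against 38.7% of all bins. Among all 26584 bins 1985 held no read in any cell, as did 67 flank bins, and such bins count as 0% in these comparisons. Contact in at most 5% of cells was seen for 24 (15.5%), against 46.7%. Contact in at least 80% of cells was seen for 44 cluster bins (28.4%), against 20.9% of all bins. This last excess was lost in other settings: at an OE of at least 2 the count was 2 (1.29%, all bins 4.24%), and with all cells thinned to the lowest depth it was 25 (16.1%, all bins 16.7%). Of the 44 bins in the main setting, 34 were among the 97 cluster bins of chromosome 11. Elsewhere 10 of 58 cluster bins reached 80% of cells, a lower percentage than over all bins. The counts at 50% kept their order at an OE of at least 2 (29.7% against 20.9%) and after thinning (52.3% against 30.8%). The count above 20% and under 80% was not repeated in other settings. Expected numbers were under 100 in 28 of the 155 cluster bins, against 562 of all 26584 bins. Calls in such bins rest on few reads, and their part in the intermediate frequencies was not tested.

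**Figure D1:**
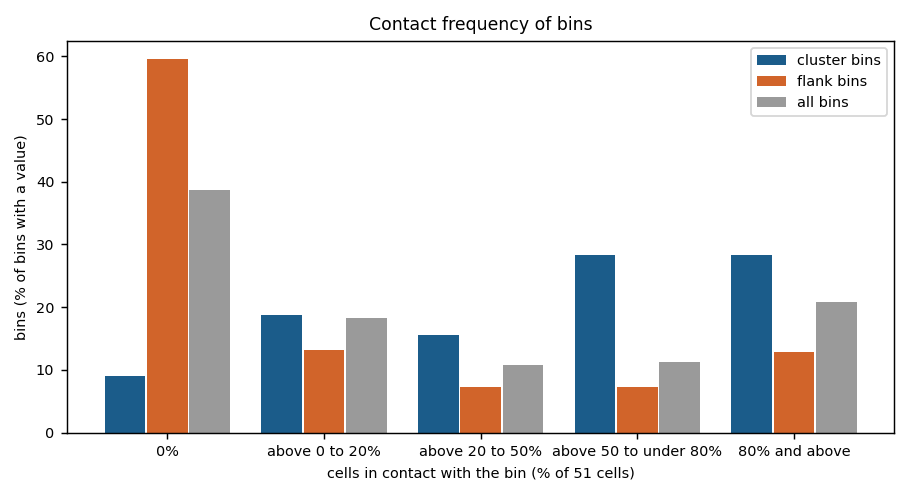
Percentage of 100 kb bins (vertical axis) in each class of contact frequency (horizontal axis, percentage of 51 cells) for cluster bins, flank bins and all bins. Flank bins pile up at 0% (59.5%), while cluster bins are most frequent above 50%.

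Among values that passed the OE limit of 1, the median signal was about the same in clusters as in other DNA. The median OE of contacted bins was 2.42 in clusters, 2.44 in flanks and 2.40 over all bins, whereas the mean OE over all cells was 1.51, 0.612 and 0.928. The higher mean of the clusters went with more frequent calls. The medians leave out every value under the limit, so they cannot show differences below it. They also include the 28 cluster bins with an expected number under 100, where few reads make a high OE.

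Contact frequency often changed at cluster edges. A total of 81 cluster bins (52.3%) stood at least 20 points above the mean frequency of the other bins within 2 Mb, against 21.8% of all bins and 12.0% of flank bins. At 11 of the 32 cluster edges (34.4%) the bins on either side differed by at least 30 points, against 6.41% of all pairs of adjacent bins. The inner bin was the higher one at 10 of these edges and the lower one at 1, the far edge of the chromosome 7 cluster. Mean contact share was above the flanks in 14 of 16 clusters, by over 1 SD in 9 of them, and above the all-bin share in 11. It was above the flank on each side taken by itself in 10. No such counts were made for other intervals of the genome, so these have no background. The 14 include OR1J-OR1L, which was above flanks of 0% in only 3 cells.

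**Figure D2:**
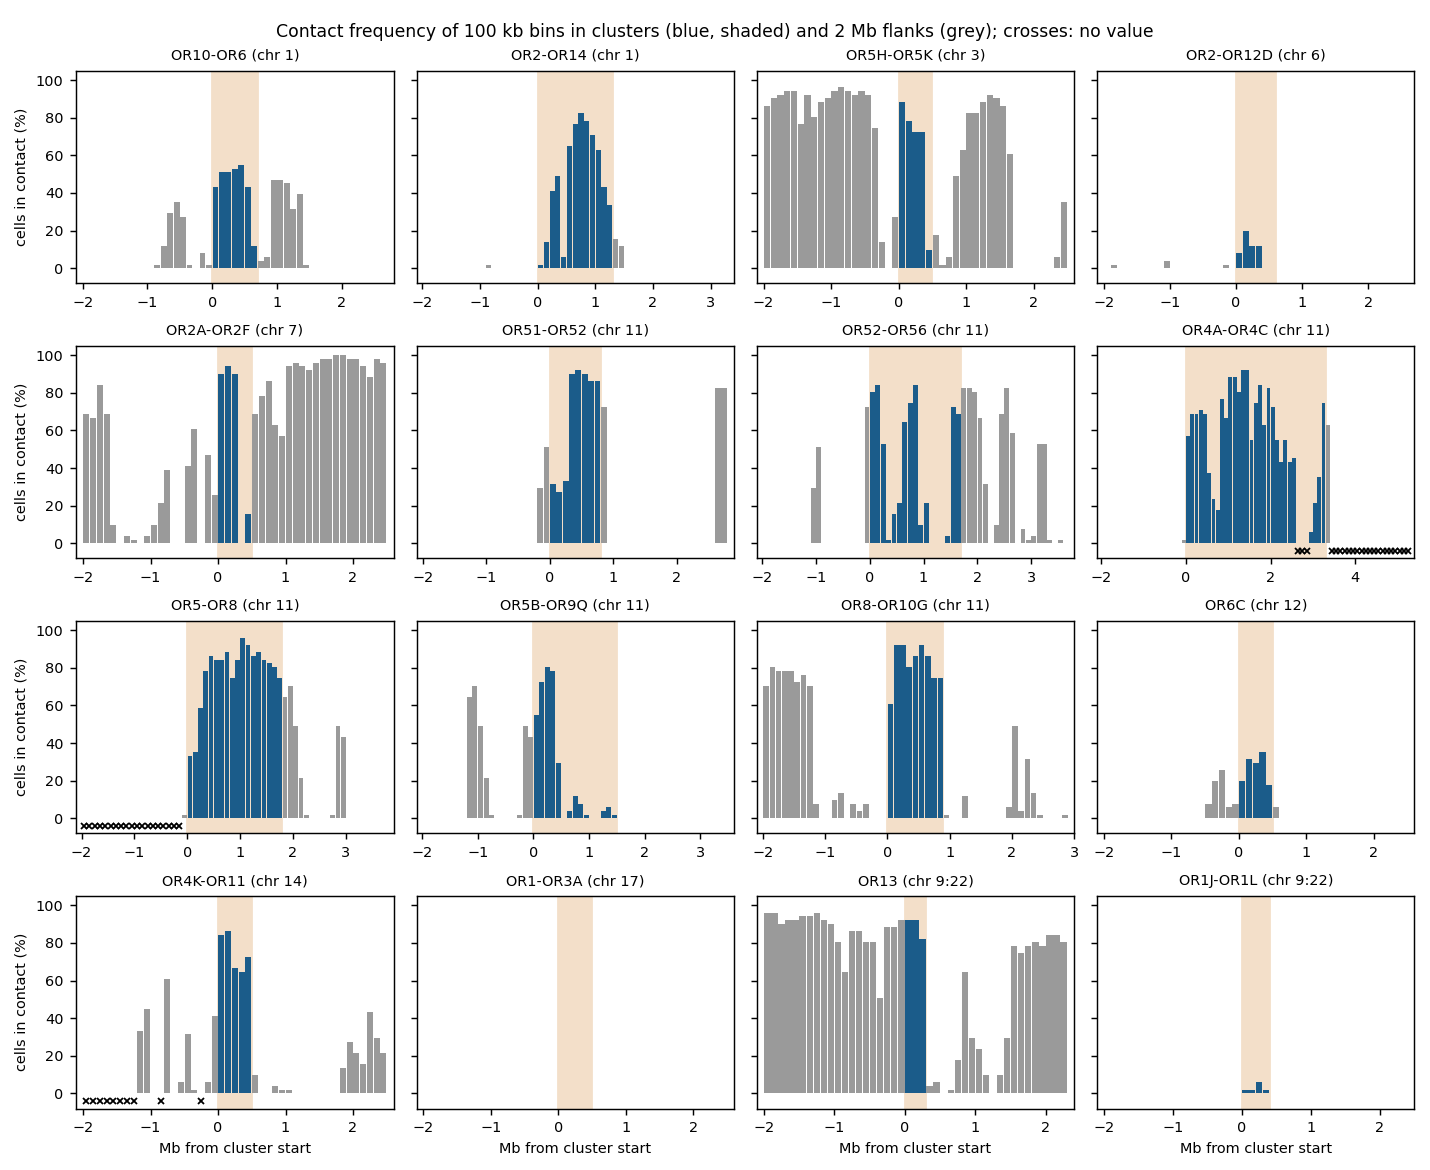
Contact frequency (vertical axis, percentage of 51 cells) of each 100 kb bin against the distance from the cluster start in Mb, for the 16 clusters (blue bars on shading) and their flanks (grey); crosses mark bins with no value, and bins of another cluster are left blank. OR8-OR10G rises from bins near 0% at both edges, and OR13 ends a longer contacted region. Lower bins part OR5H-OR5K from contacted DNA in its flanks, and OR1-OR3A shows no bar.

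Only 3 of the 16 clusters had every bin at 50% of cells or more. OR8-OR10G lies on chromosome 11 (123600001 to 124500000) and holds 22 coding receptor genes of the OR8, OR10 and OR6 families. Its mean OE per cell ran from 0.365 over a median of 2.29 to 6.32. It had a share of 82.1% ± 25.0 against 19.5% ± 9.58 in its flanks, and its bins lay between 60.8% and 92.2% of cells. All 9 bins were contacted in 24 cells, and 1 cell contacted none. Frequency stepped from 0% to 60.8% at its first edge and from 74.5% to 1.96% at its last. The flanks were unlike, with 32.8% before the cluster and 6.08% after it. Flank bins from 121600001 to 122400000 were at 70.6% to 80.4% of cells. OR4K-OR11 on chromosome 14 (20200001 to 20700000), with 14 coding receptor genes, had a share of 74.9% ± 34.4 against 13.9% ± 10.5. Its bins lay between 64.7% and 86.3% of cells. The cells were divided: 25 contacted all 5 bins, 6 contacted none and 20 lay between.

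The third, OR13, lies at 107200001 to 107500000 of the sequence the file names 9:22, which joins parts of chromosomes 9 and 22 and whose positions count along the join. It had the highest share, 88.9% ± 23.7. In all, 40 cells contacted all 3 bins, and the bins lay between 82.4% and 92.2%. Its surroundings were contacted too, at 64.2% ± 16.1. The run of bins at 50% of cells or more began 2.8 Mb before the cluster and ended at its last bin, where frequency went from 82.4% to 3.92%. The cluster formed the edge of a longer contacted region.

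OR5H-OR5K and OR2A-OR2F also had much contact in their flanks, but lower bins lay just before each. Frequency stepped at the first edge from 27.5% to 88.2% in OR5H-OR5K and from 25.5% to 90.2% in OR2A-OR2F. OR5H-OR5K on chromosome 3 (97800001 to 98300000) had a share of 64.3% ± 24.8 against 58.1% ± 12.8 in the flanks, a difference of 6.23 ± 19.7 points that was within the spread between cells. Its first 4 bins averaged 77.9%, with the first highest at 88.2%, and its last was at 9.80%. OR2A-OR2F on chromosome 7 (143600001 to 144100000) had 58.0% ± 16.1 against 58.7% ± 8.92. The flank average joined unlike sides, since the flank before it had a share of 27.6% and the flank after it 89.7%. Its own bins were divided as well: the first 3 were contacted in 90.2% to 94.1% of cells, the next in 0% and the last in 15.7%. The bin at 0% held no read in any cell, so it has no measured level. Over bins with a read, the cluster's share was 72.5% ± 20.2 and its difference from the flanks turned from -0.64 ± 14.4 to 12.4 ± 17.9 points, both within the spread between cells.

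The 6 clusters of chromosome 11 include the class I receptors, the OR51, OR52 and OR56 families on the short arm, which resemble the receptors of fish. In OR51-OR52 (4400001 to 5200000) the share was 67.2% ± 22.2 against 13.8% ± 5.48 in the flanks. The 20 flank bins before it had 4.02%, and the 3 after it had 79.1%, above the cluster. Of those after it, only the bin from 5200001 to 5300000 adjoins the cluster. The others lie beyond OR52-OR56, from 7000001 to 7200000. The first 3 bins stayed at 27.5% to 33.3% and the last 5 averaged 89.0% ± 22.7, with a highest bin of 92.2%. Beyond them lies the bin from 5200001 to 5300000, which is in neither cluster and falls where the beta-globin genes are found. It was contacted in 37 of 51 cells (72.5%), with a mean OE of 1.68 ± 1.05. The run of bins at 50% or more went through it, from 4700001 to 5600000, into the next cluster.

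That next cluster, OR52-OR56 (5300001 to 7000000), was broken into stretches. Bins at 5300001 to 5600000, 5900001 to 6200000 and 6800001 to 7000000 had shares of 72.5%, 74.5% and 70.6%. Between them, 5600001 to 5900000 had 13.1% and 6200001 to 6800000 had 5.88% ± 11.9. In RefSeq order this array is interrupted by 18 consecutive coding genes that are no receptors, between OR52W1 and OR2AG2. Among them are ILK, an integrin-linked kinase, TPP1, a lysosomal peptidase, and TAF10, a subunit of general transcription factor TFIID. Whether these genes fill the low stretch was not tested, since gene positions of build hg19 were not used here. Single bins ran from 0% to 84.3%. Its overall share was 38.6% ± 16.6 against 26.2% ± 11.0, a difference of 12.4 ± 13.9 points that turned to -18.6 ± 19.5 with flanks of 1 Mb.

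OR5B-OR9Q on the long arm (57800001 to 59300000) had a similar break. Its first 4 bins averaged 71.6% ± 32.0 and its last 10 averaged 3.73% ± 9.16, with a bin at 29.4% between and a range from 0% to 80.4%. In RefSeq order 12 consecutive other coding genes stand between OR5B21 and OR5AN1, among them GLYAT, an acyltransferase of glycine conjugation, and MPEG1, a macrophage pore-forming protein. Receptor genes follow again from OR5AN1 to OR4D9, and the cluster's last bin was at 1.96%. Whether the 12 genes fill the low stretch was not tested, since gene positions of build hg19 were not used. The whole cluster had a share of 23.5% ± 11.8 against 9.44% ± 6.45. The 12 flank bins before it had 25.2%, above the cluster, and the 20 after it had 0%.

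The array with the most receptor genes counted here, OR5-OR8 (54800001 to 56600000), lies beside the centromere. From its first to its last receptor it holds 45 coding receptor genes and 1 other coding gene, TRIM51. Its share was 77.3% ± 23.7 against 23.4% ± 15.7, and it exceeded its flanks in 51 of 51 cells. Of its 18 bins, 16 reached 50% of cells. The lowest bin was at 33.3%, and the highest (55800001 to 55900000) was contacted in 49 of 51 cells (96.1%). Of its flank bins, the centromere side has 1 bin with a value, and the other 12 lie on the far side. OR4A-OR4C, across the centromere (48200001 to 51500000), had 60.2% ± 17.8 against 3.08% ± 2.30. That flank value rests on 20 bins before it at 0.098%, since the side of the centromere has 1 bin with a value, at 62.7%. Its bins ran from 5.88% to 92.2% of cells. The expected number was under 100 in 24 of its 30 bins with a value, with a median of 65.5 against 316 over bins with a read, so that an OE of 1 in the cell of median depth stood for 1.22 reads. In its 6 bins of at least 100 the share was 72.2% ± 27.6, and thinning all cells lowered the cluster's share to 46.0%.

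On chromosome 1, both clusters had a higher mean share than their flanks. OR2-OR14 (247600001 to 248900000), with 43 coding receptor genes near the end of the long arm, had 48.0% ± 22.5 against 1.23% ± 2.25. It was higher than its flanks in 49 cells and equal in 2. Contact peaked in its middle, where the 6 bins from 248100001 to 248700000 averaged 72.5% ± 27.9 and the highest reached 82.4%. The outermost bins were at 1.96% and 33.3%. With an OE limit of 2 its share was 22.0%. OR10-OR6 (158300001 to 159000000), with 12 coding receptor genes, had 44.0% ± 36.5 against 8.48% ± 8.23. That flank mean joined unlike bins. After the cluster, the bins from 159200001 to 159700000 were at 31.4% to 47.1% of cells, and the flank before it reached 35.3%. The cluster's own frequencies were even, from 43.1% to 54.9% over the first 6 bins, with 11.8% in the last. The cells differed: 4 contacted all 7 bins and 14 contacted none.

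OR6C on chromosome 12 (55500001 to 56000000), with 14 coding receptor genes and no other coding gene between them, was contacted in a minority of cells. Its share was 26.7% ± 34.1 against 1.81% ± 3.39, but the median cell had 0%, and its bins lay between 17.6% and 35.3% of cells. No bin was contacted in 26 cells, all 5 bins were contacted in 4, and the mean OE per cell ran from 0 to 8.04. It exceeded its flanks in 25 cells and was below them in 0.

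The remaining 3 clusters were seldom called. OR2-OR12D on chromosome 6 (29000001 to 29600000), beside the major histocompatibility complex, had 8.50% ± 16.5 against 0.196% ± 0.843, with at least 1 bin contacted in 13 cells and bins from 0% to 19.6%. OR1J-OR1L (125200001 to 125600000 of 9:22) had 2.94% ± 14.7 against 0%. Cell 39 contacted all 4 of its bins, cells 35 and 48 contacted 1 each, and the share without cell 39 was 1.00%. Its bins were at 1.96% to 5.88% of cells. OR1-OR3A on chromosome 17 (2900001 to 3400000) was contacted in 0 of 51 cells, as were its flanks. For each of its bins, the limit of 3 counts that 0 of 51 cells allows is a frequency of 5.88%, counting error only. All 11 coding genes from its first to its last receptor in RefSeq order were receptors, as in OR13 and OR6C. Clusters with receptor genes alone over that span ranged from 0% to 88.9%.

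**Figure D3:**
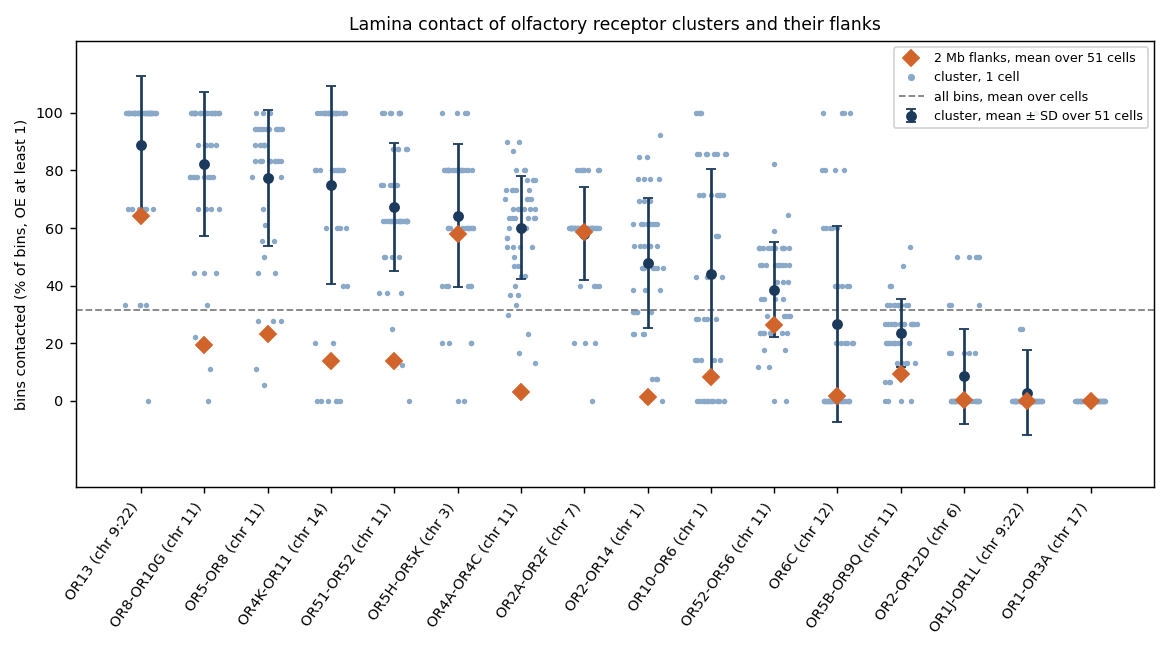
Contact share (vertical axis, percentage of bins at an OE of at least 1) of each cluster, ordered by mean: light points are single cells, dark points and bars are the mean and SD over 51 cells (SD bars may pass 0% or 100%), orange diamonds are flank means and the dashed line is the mean of all bins (31.5%). Shares fall from 88.9% in OR13 to 0% in OR1-OR3A, and single cells cover much of the scale within a cluster.

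Neighbours in the order of mean shares differed by less than the spread between cells: each of the 15 differences was smaller than its own SD over cells. That SD describes single cells and does not show whether the means differ. The widest, between OR5B-OR9Q and OR2-OR12D, was 15.0 ± 19.4 points, with OR5B-OR9Q higher in 38 cells and lower in 9. The top and bottom of the order were apart, since OR13 was at 88.9% and OR1-OR3A at 0%.

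A cell contacted a part of the clusters at a time. The number of clusters with at least 50% of their bins contacted was 8.35 ± 1.86 per cell, from 4 to 12. Cells with more contact overall had more in the clusters (r = 0.682, rho = 0.704, n = 51 cells; r = 0.634 without the 2 cells farthest from the median). The share also went with depth (r = 0.535, rho = 0.574; r = 0.478 without 2 cells), as did the difference from the flanks (r = 0.461, rho = 0.461; r = 0.375 without 2). The deepest cell, 26, had the highest cluster share, and the part of depth in these relations was not tested beyond the thinning, after which the difference from the flanks was 27.1 ± 7.80 points.

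**Figure D4:**
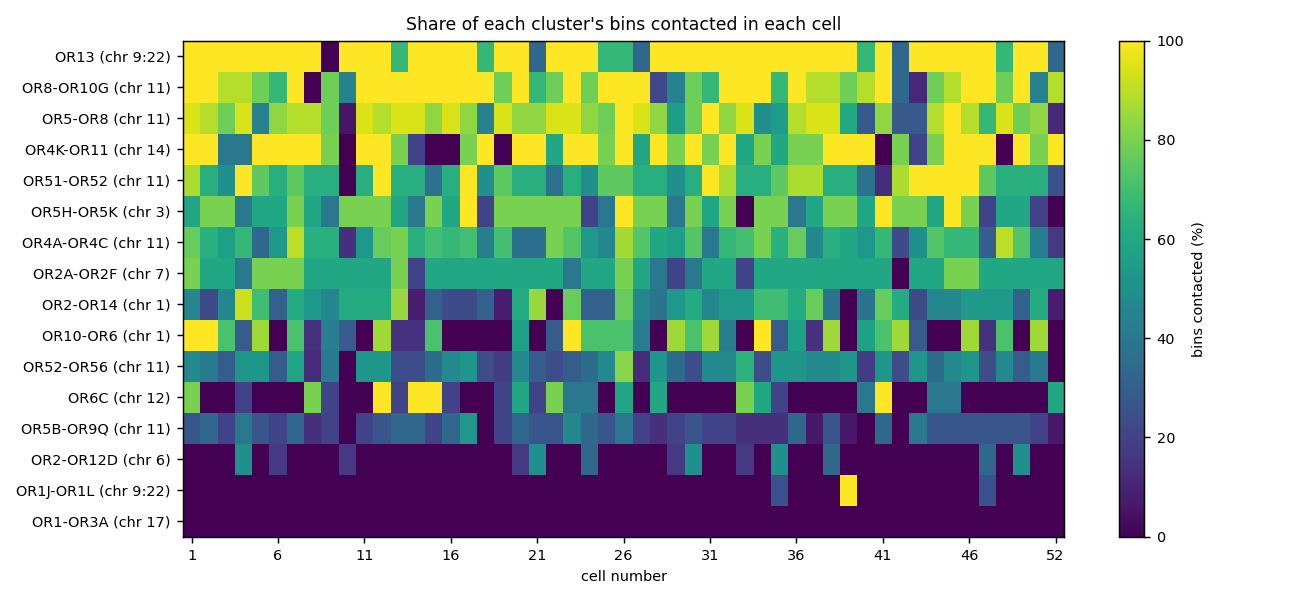
Contact share of each cluster (rows, ordered by mean) in each of the 51 cells (columns, by cell number), coloured from 0% to 100%. OR4K-OR11, OR10-OR6 and OR6C hold cells near 0% and cells near 100%, and cell 10 is dark across most chromosome 11 rows.

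Cells 10 and 52 were the 2 cells with a lower share in the clusters than over all bins. In cell 10 the clusters had 19.4% against 29.9% over all bins. Its chromosome 11 clusters were at 9.28%, the lowest of the 51 cells (mean 56.5% ± 13.7), while its other clusters were at 36.2% (mean 41.0% ± 9.72). Bins of chromosome 11 in neither a cluster nor a flank were also at their lowest in this cell, 16.7% against a mean of 35.7% ± 5.94. Cell 52 had 18.6% in the chromosome 11 clusters and 22.4% in the others.

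Pairs of clusters on the same chromosome, nearly all of them on chromosome 11, had higher correlations between cells, in the median, than pairs on different ones. Contact shares were set against each other over the 51 cells, after subtraction of each cell's share of all bins, for the 14 clusters with a mean share from 5% to 95%. The correlation had a median of 0.287 over 16 pairs on the same chromosome (-0.0461 to 0.588) and 0.0329 over 75 pairs on different chromosomes (-0.257 to 0.235). Apart from OR10-OR6 and OR2-OR14 on chromosome 1 (0.244), the pairs on the same chromosome all joined clusters of chromosome 11. Whether other chromosomes behave alike cannot be told from them. The highest value joined OR4A-OR4C and OR5-OR8, which lie 3.3 Mb apart across the centromere. OR5-OR8 and OR5B-OR9Q reached 0.456 and OR51-OR52 and OR52-OR56 0.444, whereas OR51-OR52 and OR8-OR10G, at opposite ends of the chromosome, had -0.0461. These are descriptions over cells. The clusters of a cell share its depth and, on the same chromosome, whole-chromosome differences such as that of cell 10. Pairs that share a cluster are not independent.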

How the data were processed

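Per the labels' protocols, single cells were digested with DpnI, ligated to adapters and amplified by PCR. Per the submitters' processing notes, cutadapt and Bowtie2 2.1.0 were used with build hg19. The authors deposited a ratio of observed over expected signal for each 100 kb bin and cell. For the making of the expected value and the treatment of duplicates, the answer is not given in the sources used here.

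These values were used as deposited. Reads were recovered as whole multiples of 1 factor per cell over 1 whole expected number per bin, and 100% of values above 0 came out whole within 0.02 reads. On simulated data (8000 bins, 12 cells), 99.9% of values were recovered. Recovered reads served for depth, expected numbers and thinning to 50978 reads per cell. Intervals of cells cover counting error only, and PCR reads carried no molecular identifiers.

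All 16 clusters were reported, each with its highest and lowest bin. The clusters, thresholds and gene lists were chosen with earlier results of these data known. The limits of 20 and 30 points, the counts at 50%, at 0% and above 20% to under 80%, the stretches, the choice of pairs and the gene and promoter counts were added after contact values were seen. The first and last receptor gene of each cluster came from general knowledge, and for OR4A-OR4C they cover OR4B1 to OR4C12 only. Gene counts run from the first to the last receptor, so other genes of an interval were not counted. Printed promoters come from RefSeq (GRCh38.p14). A first choice, the middle gene of each cluster, was replaced after its GC contents were seen by the gene with GC content nearest its cluster's median, and the choice supports nothing. Alternatives were OE limits of 0.5 and 2, the top 30% of bins, bins with a read or with an expected number of at least 100, odd-numbered or even-numbered cells, thinning, flanks of 1 Mb and clusters weighted equally. Python 3.11.15, numpy 2.4.6, pandas 2.3.3 and scipy 1.17.1 were used.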

Additional observations from a re-analysis of the deposited data

How the results depend on the processing

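Of 360 values under the alternatives, 340 moved by less than 1 SD over cells (counts: by under 1.5 times) and 20 moved by more. The SD over cells is a wide limit for single clusters, so this count does not measure stability. At an OE of at least 2, OR10-OR6 fell from 44.0% to 21.6% and OR6C from 26.7% to 14.1%, each within 1 SD. The sign of the difference from the flanks changed in 6 values of 2 clusters: OR52-OR56 with flanks of 1 Mb (-18.6 points), and OR2A-OR2F in 5 alternatives (main -0.64, highest 12.4 over bins with a read). At an OE of at least 2 the cluster share was 32.5%, the flank share 12.9%, their difference 19.6 points (49 of 51 cells), 2 bins reached 80% of cells and 41 had at most 5%. At an OE of at least 0.5 the flank share was 24.1% and 69 bins reached 80% of cells, against 25 after thinning. The main counts were 44 and 24. Without the 6 clusters of chromosome 11, chosen after seeing the data, the difference was 19.4 points. Also chosen then, it was 27.9 without OR4A-OR4C and 30.1 without the 5 cells of highest background. It ranged from 19.4 to 36.3 points over all alternatives. Of the 14 clusters above their flanks, 13 stayed above them in every alternative run, and OR52-OR56 did not. The other 11 values that moved were of single clusters. The cause of these changes was not tested. Depth limits the calls in bins with few expected reads.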
